A study of Mus musculus with 6 samples.

Results

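The potassium channel genes of mouse pancreatic ductal adenocarcinoma (PDAC) were compared between tumour cells titled KPSC and tumour cells titled KPC. The set held the autosomal genes whose symbol begins with KCN and for which the RNA table has values. This gave 72 genes of 18180 analysed, 69 of them protein coding and 3 noncoding. A further 24 KCN symbols carried no values, the whole Kcna and Kcnab families among them, and 2 genes on the X chromosome were outside the rule; these 26 were not analysed here. Bulk RNA came from cells sorted out of orthotopic tumours, which were grown in the pancreas of C57BL/6 mice and collected after about 10 to 14 days, with 3 KPSC libraries and 3 KPC libraries. The labels give neither the alleles behind the titles, nor the sort markers, nor whether each library is a separate animal or a clone, so each p-value reflects variation among these libraries, part of which could be technical.

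The genotype field reads wild type for the libraries titled KPSC and Setd2 knockout for those titled KPC, although the S stands in the other title. Groups are therefore called by their titles throughout. Setd2, a histone H3 lysine 36 methyltransferase, stood at 859, 908 and 1042 normalised reads in KPSC replicates 1, 2 and 3, against 1338, 1099 and 1046 in KPC replicates 1, 2 and 3. It did not pass the test (log2 fold change -0.31, limma adjusted p = 0.148), and reads summed over all exons do not settle which libraries lack a working copy.

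Potassium channels let potassium ions leave the cell and so set the membrane voltage. In duct-like epithelia this outflow keeps the voltage negative and sustains the secretion of chloride and bicarbonate. The family is built from voltage-gated, calcium- or sodium-activated, inward-rectifier and tandem-pore subunits that line the pore, and from auxiliary subunits that alter gating or transport to the surface. Many of the genes are best known from nerve, muscle, islet or immune cells.

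Some RNA of other cells was present and differed between libraries. Marker shares in this paragraph are of all reads. Leukocyte markers, 20 in number and none at 0 in any library, held 0.131% to 0.193% in KPSC and 0.227% to 0.293% in KPC libraries, without overlap, and 7 of them were lower. Epithelial markers, all 10 detected, held 0.646% to 0.808% in KPSC and 0.403% to 0.499% in KPC, and 7 were higher. Of 11 neural and Schwann cell markers tested, 3 were higher and 0 lower. Over all genes tested, the percent called higher was 7.61 and the percent called lower 6.76. Acinar markers ranged from 0.41% to 19% in KPSC and from 0.983% to 7.54% in KPC. KPSC replicate 3 held the least acinar RNA (0.41%) and islet RNA (0.00127%, against 0.0252% or more elsewhere) and the most pericyte and smooth muscle marker RNA (0.105%, against 0.0528% or less). Of that list, Des, which striated muscle also expresses, read 7737 normalised reads in KPSC replicate 3, out of 15348 for the list, against 239 to 581 in the other libraries. The part of other cells in the results below was not tested unless a value is given.

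A potassium channel transcript was found in every library, but 1 gene supplied much of it. All 72 genes together held 0.0286% to 0.0386% of reads in KPSC and 0.0337% to 0.0385% in KPC libraries. Their summed level was 5890.4 ± 291 normalised reads in KPSC and 5395 ± 325 in KPC (SD, n = 3 each). Kcnn4, the intermediate-conductance calcium-activated channel of lymphocytes and secretory epithelia, supplied 41.8% to 44.2% of that sum in KPSC and 36.7% to 43.3% in KPC. It was the single gene with a mean over 6 libraries of at least 500 normalised reads. Another 7 genes had a mean of 100 to under 500, 32 had a mean of 10 to under 100, and 32 had a mean under 10. Reads were found in all 6 libraries for 48 of the 72.

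Levels of different genes are compared here per length, in normalised reads per kilobase of the listed gene length. Kcnn4 stood first, at 496 ± 32.1 in KPSC and 427 ± 31 in KPC. Kcne3 followed with 177 ± 29.8 in KPSC and 69.6 ± 17.5 in KPC, and its channel partner Kcnq1 with 121 ± 42.7 in KPSC and 92.5 ± 21.5 in KPC. The tandem-pore gene Kcnk5 had 139.6 ± 28 in KPSC and 69.2 ± 7.2 in KPC. Kcnh2, the channel that ends the heartbeat's action potential, had 79.1 ± 27 in KPSC and 96.6 ± 23.5 in KPC. In KPC the SD ranges of Kcne3, Kcnq1, Kcnk5 and Kcnh2 all overlapped. In KPSC those of Kcne3, Kcnq1 and Kcnk5 overlapped, and that of Kcnh2 lay below those of Kcne3 and Kcnk5. Below them came the tandem-pore genes Kcnk6 (55 ± 7.95 in KPSC, 60.0 ± 6.9 in KPC), Kcnk1 (38 ± 25.9 in KPSC, 29.4 ± 13.6 in KPC) and Kcnk13 (20.2 ± 3.02 in KPSC, 21.5 ± 3.09 in KPC). The highest inward rectifier was Kcnj8, which forms the ATP-sensitive channel of vessel walls, at 27.8 ± 7.53 in KPSC and 31.6 ± 15.6 in KPC (log2 fold change -0.10, limma adjusted p = 0.896). Kcnt2, a sodium-activated channel, was also among the leading 10 by the mean over 6 libraries, with 8.35 ± 1.35 in KPSC and 42.2 ± 7.97 in KPC. In KPSC alone it lay below genes outside the 10, such as Kcnu1 (26.3 ± 3.5 in KPSC, 9.2 ± 1.92 in KPC).

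**Figure D1:**
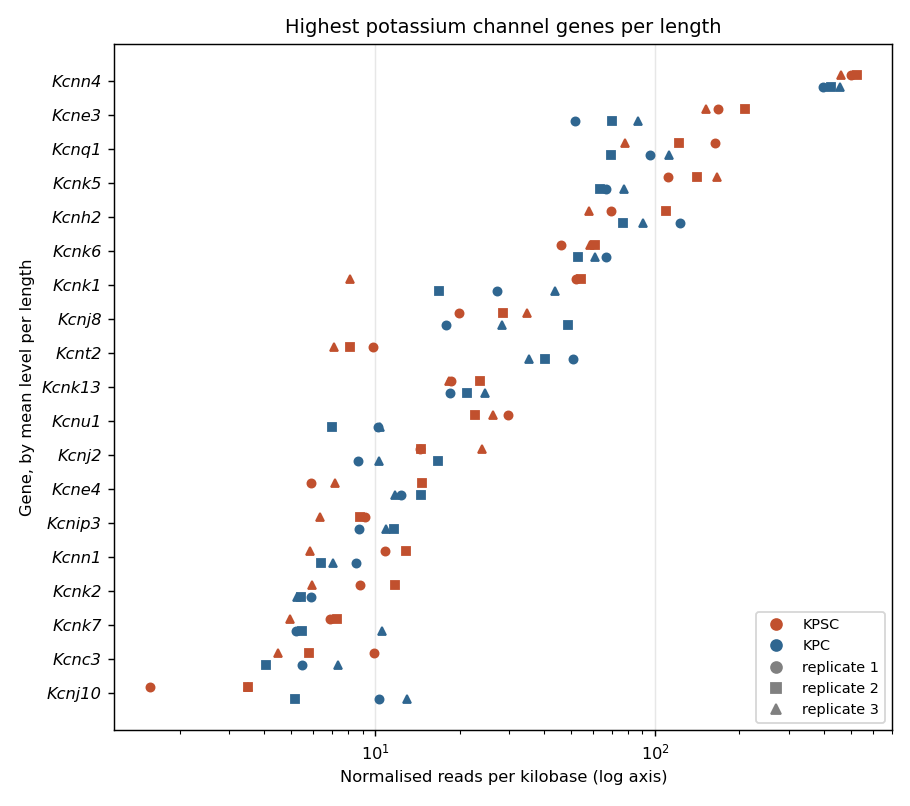
Normalised reads per kilobase on a log axis for 19 of the 20 potassium channel genes of highest mean level, with 1 point per library (KPSC red, KPC blue; shape marks the replicate). Kcnn4 lies above all others in both groups, and the groups do not overlap for Kcnn4, Kcne3, Kcnk5, Kcnt2, Kcnu1, Kcnk2 and Kcnj10.

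Sequences just before the start sites are shown for Kcnn4, the most abundant gene, and for Kcnt2, Kcne3 and Kcnk5, the most abundant protein-coding genes that passed the test between groups, because they differ widely in CpG content. They are the 250 bases upstream of the RefSeq start (GRCm38.p6): chr1:140245468-140245717 on the plus strand for Kcnt2, chr7:100176420-100176669 on the plus strand for Kcne3, chr14:20181783-20182032 on the minus strand for Kcnk5 and chr7:24370013-24370262 on the plus strand for Kcnn4. These RefSeq starts are not all the listed gene starts. That of Kcne3 (100176670) lies inside the listed gene, which starts at 100176502, so most of its window does too. That of Kcnk5 (20181782) lies just inside its listed start of 20181809. That of Kcnt2 (140245718) lies before its listed start of 140246158. Capitals mark each CpG dinucleotide.
Kcnt2: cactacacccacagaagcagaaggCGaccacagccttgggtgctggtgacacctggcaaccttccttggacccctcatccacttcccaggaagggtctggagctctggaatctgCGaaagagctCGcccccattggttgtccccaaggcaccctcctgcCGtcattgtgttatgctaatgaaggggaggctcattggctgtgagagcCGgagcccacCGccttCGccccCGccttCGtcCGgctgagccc
Kcne3: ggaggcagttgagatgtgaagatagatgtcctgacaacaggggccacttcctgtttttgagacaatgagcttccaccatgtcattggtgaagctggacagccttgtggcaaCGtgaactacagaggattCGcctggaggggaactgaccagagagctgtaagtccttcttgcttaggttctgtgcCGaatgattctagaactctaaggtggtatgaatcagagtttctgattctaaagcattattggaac
Kcnk5: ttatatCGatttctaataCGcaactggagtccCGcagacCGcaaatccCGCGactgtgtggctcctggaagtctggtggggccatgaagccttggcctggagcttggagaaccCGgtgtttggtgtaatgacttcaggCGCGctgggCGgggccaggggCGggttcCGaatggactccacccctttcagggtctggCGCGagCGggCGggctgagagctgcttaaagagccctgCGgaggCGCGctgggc
Kcnn4: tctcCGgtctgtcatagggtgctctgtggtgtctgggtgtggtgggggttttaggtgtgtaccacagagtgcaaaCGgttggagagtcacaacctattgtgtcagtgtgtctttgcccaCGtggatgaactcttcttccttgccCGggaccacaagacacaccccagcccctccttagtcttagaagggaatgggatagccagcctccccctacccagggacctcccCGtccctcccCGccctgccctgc

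The window of Kcnk5 held 19 CpG, more than 80.3% of all 32851 promoters in the RefSeq table, and that of Kcne3 held 3, more than 29% of them. Kcnt2 had 10 and Kcnn4 had 6, and the median of all promoters was 6. Kcne3 and Kcnk5 were both higher in KPSC. The windows were shown because they differ in CpG content, so that difference is not a result about genes higher in KPSC. Short motifs were searched on both strands. GGGCGG, the core that Sp-family factors bind, occurred 3 times in the Kcnk5 window and once on the reverse strand in that of Kcnn4, and 32.7% of all promoters hold it. TGANTCA, the pattern of AP-1 factors, which reads the same on both strands, occurred once, in the Kcne3 window past the listed gene start. Of all promoters, 6.75% hold it. TATAAA was in none of the 4 windows and is in 12.4% of all promoters. Of the 72 genes, 53 had a promoter entry, with a median of 9 CpG. For these a single start per gene was used, while the values for all promoters count each start of a gene. That median was 8 for the 11 with a mean of at least 50 normalised reads, 7.5 for the 18 at 10 to under 50, and 12 for the 24 under 10.

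The question put to each gene was whether its level differed between KPSC and KPC by more than the spread between libraries. Over all 16737 genes tested, 2406 passed, a percent called of 14.4. Of the 62 potassium channel genes that reached 1 normalised read in 3 or more libraries, 3 were higher and 4 lower in KPSC, 7 in all or 11.3%. That share lies near the background, so the number called says nothing particular about potassium channels. Over all genes, 7.61% were higher and 6.76% lower. The median log2 fold change was -0.10 for the 62 genes, against 0.01 for all genes tested. All 7 calls came from genes with a mean of at least 10 normalised reads: 2 of 25 at 10 to under 50 (8.76% of all genes at that level), 5 of 14 at 50 to under 500 (17.1%) and 0 of 1 above. None of the 22 genes at 1 to under 10 passed (3.3% of all genes there), and 10 genes were too low to test (Kcnd2, Kcng1, Kcng3, Kcnj12, Kcnj16, Kcnk10, Kcnmb3, Kcnmb4os1, Kcnmb4os2 and Kcnv1). In bulk samples, fewer cells of a type and less RNA per cell cannot be told apart.

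The groups did not overlap for 16 of the 62 genes (25.8%), 7 higher and 9 lower in KPSC, where the percent over all genes was 34.8. Without KPSC replicate 3 the calls were 3 higher and 6 lower, and they held the same 7 genes. Calls over all genes also rose there, from 2406 to 3051. Scaled to library size alone, which moved the median of all genes to -0.18, the split was 2 higher and 5 lower, with 1272 calls over all genes. With the leukocyte level as a covariate, which itself correlated at -0.941 with the group, none of the 7 passed (limma adjusted p = 0.215 to 0.746), and all kept their direction. That fit called 1 of all genes tested, so the loss is not particular to these 7, and the part of leukocytes in them was not tested.

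**Figure D2:**
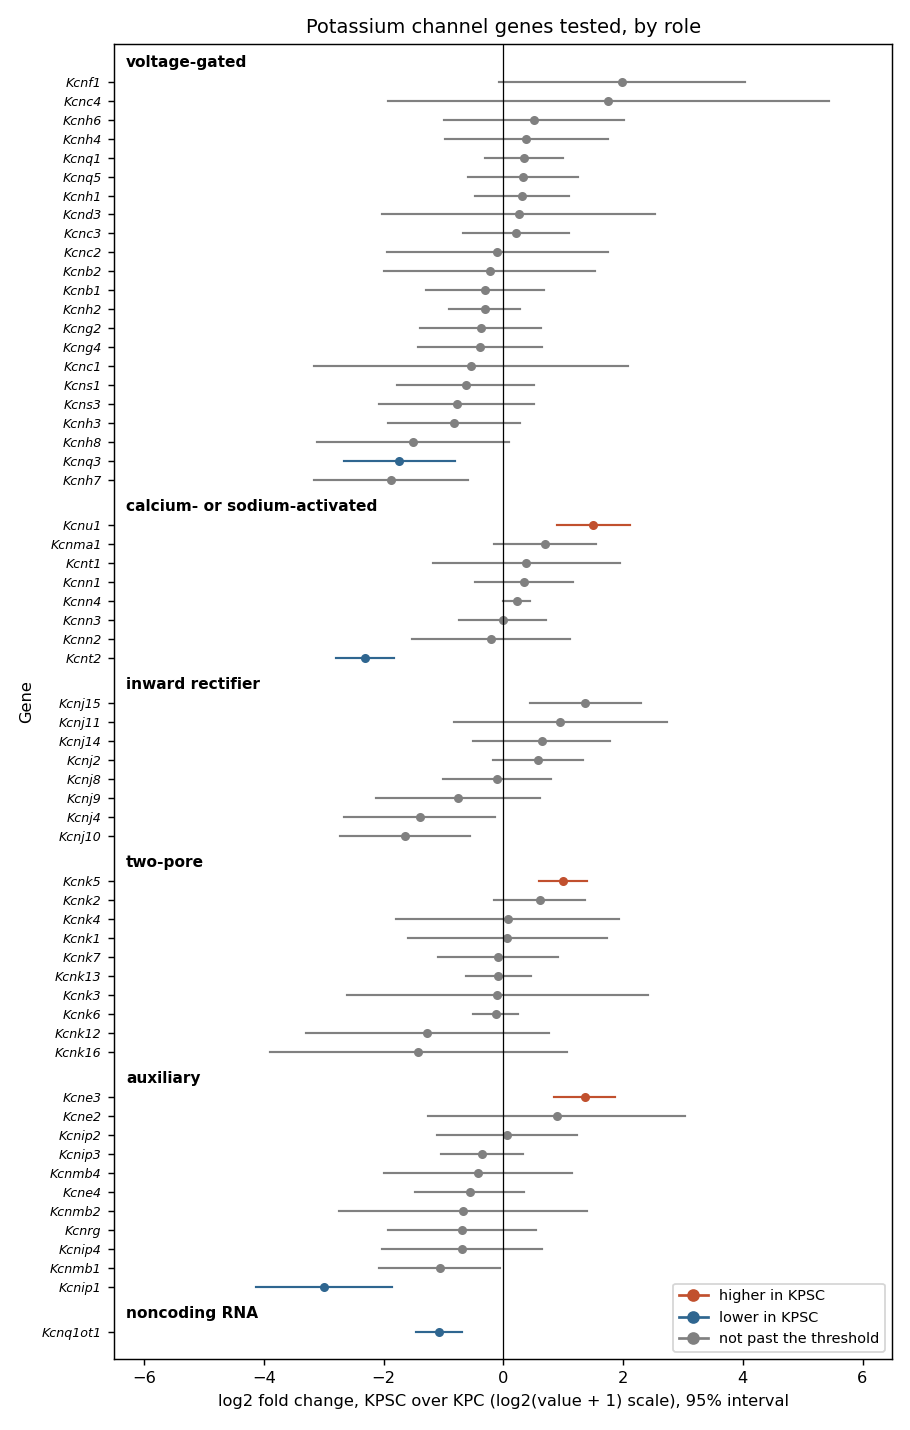
The log2 fold change of KPSC over KPC on the log2(value + 1) scale with its 95% interval for 60 of the 62 potassium channel genes tested, grouped by role. Kcnu1, Kcnk5 and Kcne3 lie to the right and pass the threshold, while Kcnq3, Kcnt2, Kcnip1 and Kcnq1ot1 lie to the left and pass; most intervals include 0.

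Among auxiliary subunits, Kcne3 rose and Kcnip1 fell, and the other 9 tested did not pass. Kcne3 encodes a small membrane protein that holds the Kcnq1 channel open and so serves chloride secretion in gut epithelium. It stood at 299, 373 and 270.3 normalised reads in KPSC replicates 1, 2 and 3, against 91.9, 125 and 154 in KPC replicates 1, 2 and 3. Every KPSC library lay above every KPC library. The log2 fold change was 1.36 (SE 0.22, limma adjusted p = 0.00767). Kcnq1 itself read 670.2, 496 and 320.4 in KPSC and 393, 284 and 458 in KPC, so the groups overlapped. Its log2 fold change of 0.35 had an interval of -0.30 to 1.0 (limma adjusted p = 0.469).

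Kcnip1 encodes a calcium-binding partner of the Kcnd channels, which make the transient outward current of neurons. It read 4.83, 1.12 and 1.73 in KPSC replicates 1 to 3, against 27.3, 26.9 and 20.5 in KPC replicates 1 to 3. Its log2 fold change of -2.99 (SE 0.49, limma adjusted p = 0.00756) rests on 7 reads in KPSC and 81 in KPC, a ratio 10.4-fold lower with an exact counting interval of 4.81 to 26.6. Of its channel partners, Kcnd1 lies on the X chromosome and was not analysed here, Kcnd2 was too low to test, and Kcnd3 averaged 5 ± 4.42 normalised reads in KPSC and 4.64 ± 4.06 in KPC. Kcnmb1, the beta subunit of the BK channel in smooth muscle, lies on the opposite strand inside Kcnip1 and shares 0 exon bases with it. It read 20.5, 11.2 and 6.91 in KPSC and 29.1, 26.9 and 21.6 in KPC, without overlap, but did not pass (log2 fold change -1.06, limma adjusted p = 0.153).

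Among tandem-pore channels, which carry the resting leak of potassium, Kcnk5 rose and the other 9 tested did not pass. Kcnk5 encodes a leak channel that opens in alkaline surroundings and is known from kidney tubules. It read 378, 479 and 568 normalised reads in KPSC replicates 1 to 3, against 227, 216 and 263 in KPC replicates 1 to 3. The groups did not overlap, and the log2 fold change was 0.99 (SE 0.17, limma adjusted p = 0.00886). Scaled to library size only, the call was lost (0.80, limma adjusted p = 0.0907). Kcnk6, a leak channel of macrophages and other cells, read 191, 253 and 242 in KPSC and 276, 219 and 252 in KPC. Its log2 fold change of -0.13 had an interval of -0.50 to 0.25 (limma adjusted p = 0.669), and that of Kcnk13, a leak channel of microglia, was -0.09 with an interval of -0.63 to 0.46 (limma adjusted p = 0.857). Kcnk2, a stretch-sensitive leak channel, read 43.5, 58.1 and 29.4 in KPSC and 29.1, 26.9 and 25.9 in KPC, without overlap, and did not pass (0.61, limma adjusted p = 0.267).

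Of 8 genes for channels gated by calcium, sodium or internal pH, Kcnu1 rose and Kcnt2 fell. Kcnt2 encodes a sodium-activated channel of neurons and showed the smallest adjusted p of the whole set. It read 67.6, 55.9 and 49.2 normalised reads in KPSC replicates 1 to 3, against 351, 278 and 244 in KPC replicates 1 to 3. The groups lay far apart, with no overlap. The log2 fold change was -2.31 (SE 0.21, limma adjusted p = 0.000709). Kcnt2 lies on chromosome 1 (140246158 to 140612067, mm10), where genes with a mean of at least 50 had a median log2 fold change of 0.39, and its 27 such neighbours within 5 Mb had a median of 0.57, opposite in sign to Kcnt2. An antisense gene, 4930590L20Rik, shares 102 exon bases with it and was not analysed here.

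Kcnu1, whose channel is known from sperm and opens as the cell interior turns alkaline, read 111, 84.9 and 98.5 in KPSC and 38.2, 26.1 and 38.8 in KPC. The groups did not overlap, and the log2 fold change was 1.5 (SE 0.26, limma adjusted p = 0.0093). Its 49 neighbours on chromosome 8 had a median of 0.01. Kcnn4 read 2558, 2693 and 2366 in KPSC, against 2028, 2178 and 2344 in KPC. All KPSC values were higher, but KPSC replicate 3 and KPC replicate 3 nearly met, and the log2 fold change of 0.22 (interval -0.01 to 0.44) did not pass (limma adjusted p = 0.186). Kcnma1, the pore of the large-conductance BK channel, averaged 61.3 ± 24.4 in KPSC and 36.4 ± 9.76 in KPC (limma adjusted p = 0.26).

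Among 24 voltage-gated genes tested, Kcnq3 fell and no other passed. Kcnq3 encodes a subunit of the M current, which damps neuronal firing. It read 12.1, 11.2 and 25 normalised reads in KPSC replicates 1 to 3, against 71.9, 42.1 and 48.5 in KPC replicates 1 to 3, without overlap (log2 fold change -1.74, SE 0.40, limma adjusted p = 0.0269). Kcnq3 missed the threshold when KPSC replicate 1 or 2 or any 1 of the KPC libraries was omitted (limma adjusted p = 0.0596 to 0.0988, with log2 fold changes of -1.90 to -1.52). Kcnh7, of the Kcnh2 family, read 13.3, 21.2 and 4.32 in KPSC and 60.9, 34.5 and 36.7 in KPC (log2 fold change -1.87, limma adjusted p = 0.0614). It shares 696 of its 15226 exon bases with Gca on the other strand, which averaged 70.0 in KPSC and 211 in KPC. How reads from the shared stretch were assigned is not given, so their part in the Kcnh7 values is not known. Kcnh2 read 338, 531 and 282 in KPSC and 594, 373 and 438 in KPC, and its interval was -0.91 to 0.28 (limma adjusted p = 0.485). Kcnf1, a subunit that forms no channel alone, read 13.3, 21.2 and 17.3 in KPSC and 6.37, 11.8 and 0 in KPC. Its log2 fold change of 1.98 (limma adjusted p = 0.188) ranged from 0.89 to 2.73 over the alternatives tried.

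None of the 8 inward rectifiers tested passed, and 3 had separate groups, a share near the 34.8% of all genes. Kcnj10, which takes up potassium in glia and kidney, read 8.45, 19 and 19 in KPSC and 55.5, 27.8 and 70.1 in KPC (log2 fold change -1.64, limma adjusted p = 0.0548). Kcnj15, a relative expressed in kidney, read 41.1, 48 and 62.2 in KPSC and 20, 10.9 and 29.1 in KPC (1.37, limma adjusted p = 0.0596). Kcnj4 was near the detection limit, at 0.775 ± 0.673 in KPSC and 3.47 ± 0.797 in KPC (limma adjusted p = 0.133). The authors' deposited table called Kcnj10 (adjusted p = 0.00959), Kcnj15 (adjusted p = 0.0255) and Kcnh7 (adjusted p = 0.0166) beside the 7 genes called here, 10 in all. The share of all genes called in the authors' table was not counted here, so the 10 have no background beside them. Without KPSC replicate 3, limma called Kcnj10 (adjusted p = 0.0318) and Kcnh7 (adjusted p = 0.0482) as well.

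Kcnq1ot1 carries the prefix of the family but encodes no channel. It is a long noncoding RNA read from within Kcnq1 on the opposite strand, and on the chromosome inherited from the father it silences neighbouring genes. It read 134, 139.7 and 149 normalised reads in KPSC replicates 1 to 3, against 349, 306 and 246 in KPC replicates 1 to 3, with no overlap. The log2 fold change was -1.07 (SE 0.17, limma adjusted p = 0.00608). Its exon of 93092 bases lies wholly inside Kcnq1 and shares 121 bases with exons of Kcnq1. The sources used here do not say whether counting used strand, so its count may hold reads from either strand of this span.

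**Figure D3:**
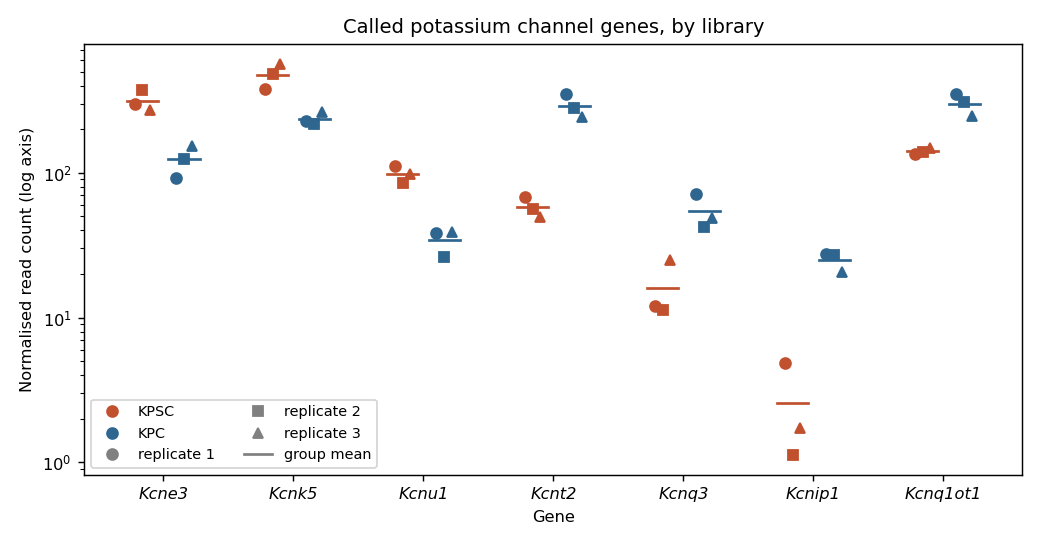
Normalised read counts on a log axis for the 7 potassium channel genes past the threshold, with 1 point per library (KPSC red and left, KPC blue and right; shape marks the replicate) and a bar at each group mean. Kcne3, Kcnk5 and Kcnu1 are higher in all KPSC libraries, and Kcnt2, Kcnq3, Kcnip1 and Kcnq1ot1 are lower in all KPSC libraries.

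Kcnc4 and Kcnj12, channel genes known from muscle, were read almost solely in KPSC replicate 3. A rule set after the values were seen took genes whose value in 1 library was at least 10 and at least 2 times the next of the 6, or whose next lowest value was at least 10 and at least 2 times its own. It picked 6 genes as highest and 3 as lowest in KPSC replicate 3, 1 as lowest in KPSC replicate 1, and none in the other 4 libraries. The rule was run on the potassium channel genes alone, so no share over all genes stands beside these counts. Over all genes with a mean of at least 50 normalised reads, KPSC replicate 3 correlated at 0.877 and 0.892 with KPSC replicates 1 and 2 (log2 scale). KPSC replicates 1 and 2 correlated with each other at 0.989, and pairs of KPC libraries at 0.974 to 0.98. Kcnc4, a fast voltage-gated channel of muscle and nerve, read 105 normalised reads in KPSC replicate 3 and 1.82 or less in every other library. Kcnc1 read 27.6 there, against 5.39 or less elsewhere. Kcnj12, an inward rectifier of muscle, read 14.7 there and 0 in all others. Kcnj11 read 75.1 there, against 13.6 or less elsewhere, and Kcnq5 read 88.1 there, against 40.0 or less elsewhere.

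Skeletal muscle genes moved with them, and their part in these values was not tested. Of 14 such markers, a list written after these values were seen, all 14 were highest in KPSC replicate 3, where they held 0.4% of reads, against 0.00153% to 0.00383% in the other 5 libraries. Acta1, the actin of skeletal muscle, read 19875 normalised reads there and 5.59 or less elsewhere. The partner of Kcnj11 in muscle, Abcc9, read 205 there and 80.9 to 167 elsewhere, while its partner in islets, Abcc8, read 7.77 there and 23.5 to 67.6 elsewhere. Neighbours of Kcnc4, Kcnc1 and Kcnj11 within 5 Mb had a median shift of -0.11 on the log2 scale in KPSC replicate 3 against the mean of the others. The islet leak channel Kcnk16 read 27.8, 5.59 and 0 in KPSC replicates 1 to 3 and 15.5, 16 and 11.9 in KPC replicates 1 to 3, lowest where islet RNA was lowest. Kcnk1, Kcns3 and Kcnh7 were lowest in that library, with Kcnk1 at 18.1, against 37.8 or more elsewhere. The log2 fold change of Kcnk1 was 0.06 over all libraries and 0.94 without KPSC replicate 3, and did not pass in either case (limma adjusted p = 0.967 and 0.107).

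**Figure D4:**
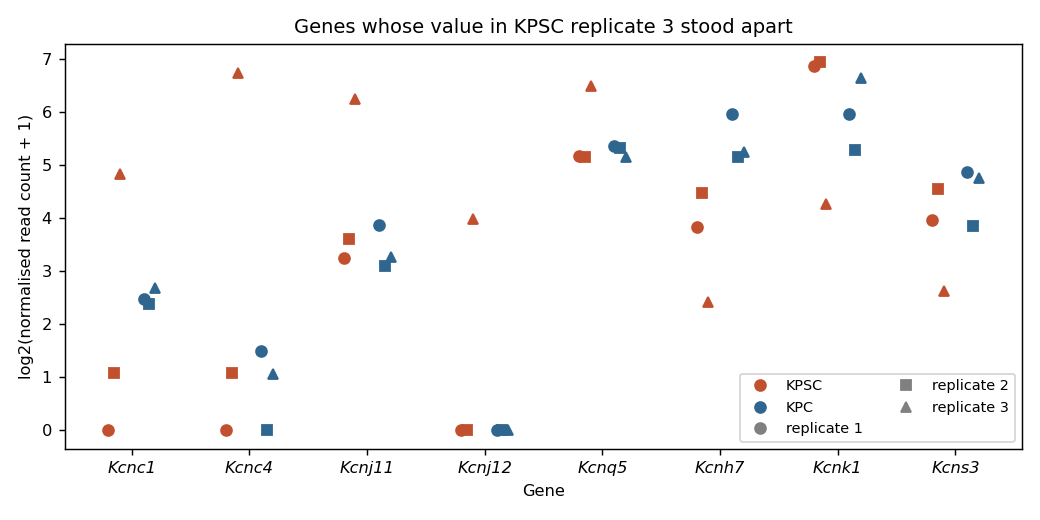
The log2(normalised read count + 1) of 8 of the 9 genes whose value in KPSC replicate 3 stood apart, with 1 point per library (KPSC red and left, KPC blue and right; shape marks the replicate). KPSC replicate 3 is the highest point for Kcnc1, Kcnc4, Kcnj11, Kcnj12 and Kcnq5 and the lowest for Kcnh7, Kcnk1 and Kcns3.

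Partners of potassium channels named outside the KCN prefix rose in 3 of 18 cases and fell in none, near the 14.4% called over all genes, with a median log2 fold change of 0.01. Lrrc26, the gamma subunit that lets the BK channel open at resting voltage in secretory epithelia, read 334, 317 and 331 normalised reads in KPSC replicates 1 to 3. In KPC replicates 1 to 3 it read 35.5, 31.1 and 51.8. The groups lay far apart (log2 fold change 3.05, SE 0.22, limma adjusted p = 0.000282), while the pore gene Kcnma1 did not pass. Sgk1, a kinase that raises channel number at the surface, averaged 1745 ± 129.8 in KPSC and 966 ± 92.2 in KPC (0.85, limma adjusted p = 0.00238), and lost its call when scaled to library size (0.66, limma adjusted p = 0.0589). Cul3, a ubiquitin ligase scaffold, averaged 1783 ± 126 in KPSC and 1332 ± 17.2 in KPC (0.42, limma adjusted p = 0.0184). The Cul3 call was lost with scaling to library size (0.23, limma adjusted p = 0.486), no mean-variance trend (limma adjusted p = 0.061) or the replicate block (limma adjusted p = 0.0954), and without KPSC replicate 1, KPC replicate 2 or KPC replicate 3 (limma adjusted p = 0.0612 to 0.0675).

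Of 20 genes for potassium pumps and cotransporters, 1 rose and 2 fell, near the 14.4% called over all genes. Atp1b1, the main beta subunit of the sodium pump in epithelia, read 1553, 1669 and 1719 in KPSC, against 2903, 2702 and 2779.8 in KPC (log2 fold change -0.76, limma adjusted p = 0.00162). Slc12a5, a potassium-chloride exporter of neurons, averaged 30.6 ± 6.2 in KPSC and 118 ± 12.2 in KPC (-1.93, limma adjusted p = 0.00302). Slc12a1, the cotransporter of the kidney loop, read 31.4, 21.2 and 10.4 in KPSC and 0, 2.52 and 1.08 in KPC (limma adjusted p = 0.0125), and the call was lost without KPSC replicate 1 (limma adjusted p = 0.05) or KPSC replicate 2 (limma adjusted p = 0.0521).

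Duct secretion genes rose in 1 and fell in 3 of 15 cases, with a median of -0.12; over all genes 7.61% were higher and 6.76% lower. The water channel Aqp5 averaged 710.3 ± 127 in KPSC and 116 ± 18.6 in KPC (log2 fold change 2.61, limma adjusted p = 0.000197). The carbonic anhydrases Car2 (-2.31, limma adjusted p = 0.000107) and Car4 (-1.71, limma adjusted p = 0.045) and the bicarbonate cotransporter Slc4a4 (-0.90, limma adjusted p = 0.00413) fell. The Car4 call was lost with no mean-variance trend (limma adjusted p = 0.108) or the replicate block (limma adjusted p = 0.0956), and without either of KPSC replicates 1 and 2 or either of KPC replicates 2 and 3 (limma adjusted p = 0.0938 to 0.134). Of 46 other cation channels, 7 rose and 4 fell, with a median of 0.15, beside the same 7.61% and 6.76% over all genes. The irritant sensor Trpa1 read 208, 164 and 149 in KPSC and 0 in all 3 KPC libraries (limma adjusted p = 7.14e-05). The sodium channel Scn8a averaged 339 ± 41.5 in KPSC and 72.4 ± 21.8 in KPC (2.25, limma adjusted p = 0.00115), and the touch channel Piezo2 rose by 1.04 (limma adjusted p = 0.00242). Trpc1 fell by 2.38, Trpm2 by 1.26 and Hcn3 by 1.09 on the log2 scale (limma adjusted p = 0.00279, 0.00782 and 0.0249). The Hcn3 call was lost with the replicate block (limma adjusted p = 0.0868) and without KPSC replicate 1, KPSC replicate 2 or any 1 of the KPC libraries (limma adjusted p = 0.0546 to 0.0979).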

How the data were processed

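RNA of sorted tumour cells was sequenced in 3 KPSC and 3 KPC libraries, grouped by title. Per the submitters' processing notes, CASAVA 1.7 and the mm10 build were used; which aligner, counter, annotation and strand setting were applied is not given in the sources used here. The deposited table gives for each library a signal, read counts scaled by that library's size factor (0.828 to 1.19). Multiplying back gave whole numbers (tolerance 0.01) for 100.0% of values, or 14662710 to 17746969 per library. It also gives the authors' p-values and adjusted p-values, quoted only as the authors' deposited table. Of 25450 rows, 18185 had values; 5 whose symbols had lost letters were left out. Gene IDs were matched to GENCODE M21 (18170 matched, 10 not).

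limma 3.58.1 in R 4.3.3 (eBayes with a mean-variance trend) was run on log2(value + 1) for the 16737 genes that reached 1 in 3 or more libraries; p-values were adjusted by Benjamini-Hochberg over all of these, with a threshold of 0.05. A pseudocount of 1 understates changes of low genes. edgeR 4.0.16 on the recovered reads called 2474 genes; DESeq2 1.42.0 was a further alternative. On simulated counts for KPSC against KPC, limma over 16858 genes recovered 64% of 2-fold and 90% of 4-fold changes, with 8 false among 162 calls. There edgeR had 7 false among 161 calls, and DESeq2 had 46 false among 227. Changes were planted only in genes with a mean of at least 50 normalised reads, which 15 of the 72 members reach. Recovery among lower genes was not measured. The interval of the Kcnip1 ratio covers counting error only. Libraries of a group differed by more than sampling noise in every pair (lowest chi-square to degrees of freedom ratio 38.7). The ratio was 368 and 189 for KPSC replicate 3 with KPSC replicates 1 and 2, against 38.7 to 106 for the other pairs. The members and gene lists were chosen with earlier results of these data known. Named were all members past the threshold, the highest member per length of each role, the 10 highest per length, members with separate groups and a log2 fold change over 1 in size, Setd2, and up to 3 called genes per list and direction; other genes were named after their values were seen. Some genes that enter the counts are not reported here by name or drawn. Where the RefSeq table held several starts, the one nearest the listed gene start was used. Protein sequences named in the design were not used here. Tables and figures were made with Python 3.11.15, pandas 2.3.3 and matplotlib 3.10.9.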

Additional observations from a re-analysis of the deposited data

How the results depend on the processing

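Across 18 alternatives, the 3 higher and 4 lower potassium channel calls stayed within 1.5 times in all but the fit with the leukocyte level as a covariate, where both counts were 0, with 1 of all genes called and 0 of the other ion transport genes (21 in the main test). That level correlated at -0.941 with the group, so the covariate and the group could hardly be told apart; there Kcnt2 had a log2 fold change of -3.04 (adjusted p = 0.215, -2.31 in the main test) and Kcnu1 1.04 (adjusted p = 0.746, 1.5 in the main test). Kcne3, Kcnt2, Kcnu1, Kcnip1 and Kcnq1ot1 passed under the 17 other alternatives. Over all genes, 2406 calls became 1272 with scaling to library size, 1543 with no mean-variance trend, 1014 with the replicate block, 3074 with DESeq2, 3585 with the acinar covariate and 1250 to 3051 on leaving out a library (3051 without KPSC replicate 3, and 1403 or fewer without any other). The other ion transport genes then numbered 12 to 24, with 13 without KPSC replicate 1 and 12 without KPSC replicate 2. Samples with the same replicate number did not deviate alike (correlations of deviations of -0.12, -0.31 and -0.42). With 3 libraries a group, which also differ in RNA of other cells, this cannot exclude a shared batch. With the block, 3 potassium channel genes were higher and 3 lower, Kcnq3 being lost (adjusted p = 0.0698).

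Genes not past the threshold changed sign as follows. Kcnk1 (0.06) had -0.13 with library size scaling, -0.39 with the acinar covariate, -2.26 with the leukocyte covariate, and -0.39 to 0.94 on leaving out a library. Kcnj8 (-0.10) had 0.03 with the acinar and 2.03 with the leukocyte covariate, and -0.45 to 0.26 on leaving out a library. Kcnk13 (-0.09) had 0.07 and Kcnq1 (0.35) -0.51 with the leukocyte covariate, and Kcnk13 -0.20 to 0.02 on leaving out a library. Car4, which passed, had 1.59 with the leukocyte covariate. The cause was not tested. With 3 libraries a group, genes under 10 normalised reads gave no call among the members, and depth limits what can be said of them.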

Other observations

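Kcnq1ot1 lies in an imprinted domain of chromosome 7. Some of the domain's protein-coding genes, picked by hand, were looked up after its own values were seen. Phlda2, a growth regulator of the placenta, read 286, 265 and 305 normalised reads in KPSC replicates 1 to 3, against 47.3, 60.6 and 57.1 in KPC replicates 1 to 3 (log2 fold change 2.36, limma adjusted p = 0.000308). Slc22a18, a transporter gene beside it, averaged 502 ± 34 in KPSC and 159 ± 27.8 in KPC (1.66, limma adjusted p = 0.000746). The tetraspanin Cd81 rose by 0.57 (limma adjusted p = 0.0145) and the channel gene Trpm5 by 2.17 (limma adjusted p = 0.0185). The cell cycle inhibitor Cdkn1c averaged 64.8 ± 17.3 in KPSC and 36.5 ± 17.3 in KPC and did not pass (limma adjusted p = 0.2), nor did Tssc4 (0.31, limma adjusted p = 0.147) or Ascl2 (0.03, limma adjusted p = 0.976). Over all genes tested, 7.61% were higher and 6.76% lower. The 87 neighbours of Kcnq1ot1 within 5 Mb had a median log2 fold change of 0.16. A link between Kcnq1ot1 and the levels of these genes was not tested.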
